A study of Mus musculus with 9 samples.

Results

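The genes described here are the touch and acid channel genes Piezo1, Piezo2, Stoml3, Asic1, Asic2 and Asic3, chosen by name among the 55247 genes of the deposited count table. Sequencing covered poly(A) RNA of mouse dorsal root ganglia (DRG) at E18.5, as 3 libraries for each of 3 genotypes. WT embryos carried neither of the altered alleles. In Isl1Cre/+ embryos, 1 copy of Isl1, a homeobox gene of sensory neurons, held the Cre recombinase, and the labels name no altered Meis2 allele. Isl1Cre/+::Meis2LoxP/LoxP embryos, called mutant hereafter, had the same Cre allele and, on both copies of Meis2, LoxP sites around the first exon that codes for the homeodomain. Recombination was thus directed to cells with a history of Isl1 expression, while the whole ganglion, with its glia, vessels and connective tissue, was sequenced. The study asked how the loss of Meis2, a homeodomain transcription factor of touch-sensing neurons, changes light touch, and the present comparison asks whether the transcripts of the touch and acid channels differed with it.

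PIEZO proteins are large channels that open when the membrane is stretched. Piezo2 is the main channel of light touch and proprioception in sensory neurons, and Piezo1 serves mainly vascular and other non-neuronal cells. STOML3 is a stomatin-like membrane protein that makes PIEZO channels more sensitive to small movements. The acid-sensing ion channels (ASICs) are sodium channels opened by extracellular protons. They are trimers that can mix subunits, and they have been studied in both touch and acid-evoked pain.

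On GRCm38 (mm10), Stoml3 lies on the plus strand of chromosome 3 (53488653 to 53508502). Asic1 lies on the plus strand of chromosome 15 (99670368 to 99701130), Asic2 on the minus strand of chromosome 11 (80880169 to 81968457) and Asic3 on the plus strand of chromosome 5 (24413392 to 24417835). These genes are annotated as protein-coding, and their exons overlap no exon of another gene. Asic2 has 2 RefSeq start sites 815.5 kb apart, which give channel subunits with different first parts, and its count sums both.

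Because Meis2 is the protein removed, the promoters of the members were searched on both strands for TGACAG (or its complement CTGTCA), the core motif of the Meis family. RefSeq promoters of 300 bases on GRCm38.p6 ran from 250 bases before the start site to 50 after. They were searched for 5 of the 6 members, all but Piezo2, and gave 6 windows. The motif was in 2 of the 6 windows, those of Asic3 and of the distal start site of Asic2. In the latter it was the complement CTGTCA, read along the gene, and began 43 bases after the start site. It was in 19.18% of all 32851 promoters of this length, so its presence sets no member apart. The stretch upstream of the Asic3 transcripts is shown because it carries the motif (capitals, 199 bases before the RefSeq start site), and that of Stoml3 because it lies before the only member close to 0 reads and lacks it, both read along the plus strand.
Asic3, chr5:24413201-24413391: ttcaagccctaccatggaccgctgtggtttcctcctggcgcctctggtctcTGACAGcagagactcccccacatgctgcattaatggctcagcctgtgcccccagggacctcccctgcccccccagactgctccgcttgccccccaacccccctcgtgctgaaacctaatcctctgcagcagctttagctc
Stoml3, chr3:53488457-53488652: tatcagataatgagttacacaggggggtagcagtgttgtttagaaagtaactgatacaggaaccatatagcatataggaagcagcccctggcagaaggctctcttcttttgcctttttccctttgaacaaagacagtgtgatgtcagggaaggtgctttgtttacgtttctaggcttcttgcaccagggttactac
A match of 6 letters is a description of the sequence and shows no binding.

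The libraries held 23854607 to 29103444 counts. Meis2 itself had 2919, 2902 and 2746 counts in the WT libraries, 2806, 2857 and 2537 in those of Isl1Cre/+, and 1084, 1073 and 1004 in the mutant ones. It was lower in the mutant than in WT by a log2 fold change of -1.33 ± 0.084 (SE, edgeR quasi-likelihood test, Benjamini-Hochberg adjusted p = 0.00779) and than in Isl1Cre/+ by -1.23 ± 0.065 (adjusted p = 0.00215). The ganglia held much RNA of sensory neurons, with 8 pan-neuronal markers summing to 7127 to 9819 cpm (counts per 1000000 of the TMM-scaled library size) and 7 nociceptor markers to 2208 to 2777 cpm, and also of other cells, with 6 fibroblast markers at 2552 to 4882 cpm. WT library 1 and mutant libraries 1 and 2 stood apart. The counts of WT library 1 gave a chi-square over genes of 108 and 129 for each degree of freedom against the other WT libraries (near 1 is counting error alone), where those gave 13.8 between them, and its pan-neuronal sum was the highest of all. Mutant library 1 gave 61.7 and 44.97 against mutant libraries 2 and 3, which gave 39.2 between them, and without it the counts of genes called below moved most in 2 of the 3 comparisons it enters. In mutant library 2, the 5 skeletal muscle markers summed to 1742 cpm, 15.2 times, and the 5 red cell markers to 3.62 times, the median of the other libraries, and the pan-neuronal sum was the lowest of all. The muscle sum was also raised in WT library 3 (745 cpm), mutant library 3 (457 cpm) and WT library 1 (383 cpm), against 53.7 to 126 cpm in the other 5. The differences of the members between mutant and WT are therefore also given without single libraries.

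Piezo2, on the minus strand of chromosome 18 (63010213 to 63387183, protein-coding, no exon shared with another gene), was by far the most abundant member. The WT libraries held 33724, 31515 and 31354 counts, those of Isl1Cre/+ 31632, 35930 and 31551, and the mutant libraries 34787, 25208 and 26954. After scaling for library size (TMM), this gave 1152 ± 96.8 cpm in WT (SD, n = 3), 1152 ± 110 cpm in Isl1Cre/+ (n = 3) and 1118 ± 175 cpm in the mutant (n = 3). The mutant group held both the highest and the lowest of the 9 libraries, mutant library 1 at 1301 cpm and mutant library 2 at 953 cpm, so the groups overlapped fully. In WT, Piezo2 ranked 56 by cpm and 584 per kilobase of exon. These ranks are among the 13191 tested genes with an exon length in the annotation, repeated symbols left out.

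Piezo1, on the minus strand of chromosome 8 (122481698 to 122551329, protein-coding), was detected in every library at a much lower level. Of its 9935 exonic bases, 2441 (24.57%) lie opposite exons of Ctu2, a tRNA-modifying enzyme gene, and since the strand setting of the counting is not stated, reads of both genes could not be told apart there. It had 979, 730 and 769 counts in the WT libraries, 1192, 722 and 751 in those of Isl1Cre/+, and 492, 1036 and 823 in the mutant ones, or 29.7 ± 6.09, 30.8 ± 8.29 and 30.4 ± 10.8 cpm (SD, n = 3 each). One library of each genotype was well above its others or below them, with Isl1Cre/+ library 1 the highest (40.4 cpm) and mutant library 1 the lowest (18.4 cpm). The coefficient of variation between libraries was 20.5% in WT, 26.9% in Isl1Cre/+ and 35.4% in the mutant, against 3.48%, 3.36% and 3.57% from counting error.

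Stoml3, the PIEZO modulator, was close to undetected. The WT libraries held 0, 4 and 2 counts, those of Isl1Cre/+ 1, 2 and 1, and each mutant library 0. The sum of 6 counts in WT has an exact 95% Poisson interval of 2.20 to 13.1, that of 4 in Isl1Cre/+ one of 1.09 to 10.2, and that of 0 in the mutant one up to 3.69. Over the summed counts of each group this is 0.0705 cpm in WT (0.0259 to 0.154), 0.0471 cpm in Isl1Cre/+ (0.0128 to 0.121) and 0 in the mutant (up to 0.0473), so that the 3 intervals overlap and the mutant bound lies above the Isl1Cre/+ level. Both controls together had 10 counts, or 0.0589 cpm (0.0282 to 0.108), a level above the mutant bound but an interval that holds it. These intervals cover counting error only, and their overlap is not a test of a difference. WT library 1 also held 0 counts, so the mutant libraries overlapped with WT, whereas they lay below all 3 libraries of Isl1Cre/+, by 1 or 2 reads each. The gene was under the minimum of 100 counts and was not tested with the others. Without this minimum, edgeR placed Stoml3 past the criterion described below against WT (unadjusted p = 0.044, adjusted p = 0.997), as 408 of 32546 genes were, but not against Isl1Cre/+ (unadjusted p = 0.0642, adjusted p = 0.867). In limma voom it was past it against Isl1Cre/+ (unadjusted p = 0.0116, adjusted p = 0.921), as 3.54% of all genes were, but not against WT (unadjusted p = 0.0541, adjusted p = 0.995). In DESeq2 it was past it against neither, with an unadjusted p of 0.203 and an adjusted p of 0.999 against WT. At 10 reads in all 6 control libraries the answer depended on the test.

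Asic1, a subunit found in central and peripheral neurons, had 3494, 2977 and 3529 counts in the WT libraries, 3608, 2893 and 3511 in those of Isl1Cre/+, and 3363, 2657 and 2665 in the mutant ones. These gave 119 ± 13.2, 116 ± 11.5 and 112 ± 12.9 cpm (SD, n = 3 each). Each genotype had 1 library near 100 to 105 cpm and 1 above 123 cpm, and the 3 ranges overlapped almost completely.

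Asic2, whose subunits modify the proton response of the other ASICs, had 2527, 2779 and 2599 counts in the WT libraries, 2686, 2732 and 2681 in those of Isl1Cre/+, and 2675, 2174 and 2298 in the mutant ones. It was the steadiest member, at 94.1 ± 4.03, 94.1 ± 3.09 and 92.0 ± 9.06 cpm (SD, n = 3 each). Mutant library 2 was the lowest of all libraries (82.2 cpm) and mutant library 1 the highest (100.04 cpm).

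Asic3, the subunit best known from sensory neurons, where it gives the most sensitive proton response, had 1849, 1904 and 1572 counts in the WT libraries, 1865, 1702 and 1979 in those of Isl1Cre/+, and 1837, 1308 and 1453 in the mutant ones. Its level was 63.5 ± 8.05, 64.4 ± 4.59 and 59.2 ± 9.62 cpm (SD, n = 3 each). The lowest value was again that of mutant library 2 (49.5 cpm), followed by WT library 3 (54.3 cpm), and the mutant range spanned most of both control ranges.

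**Figure D1:**
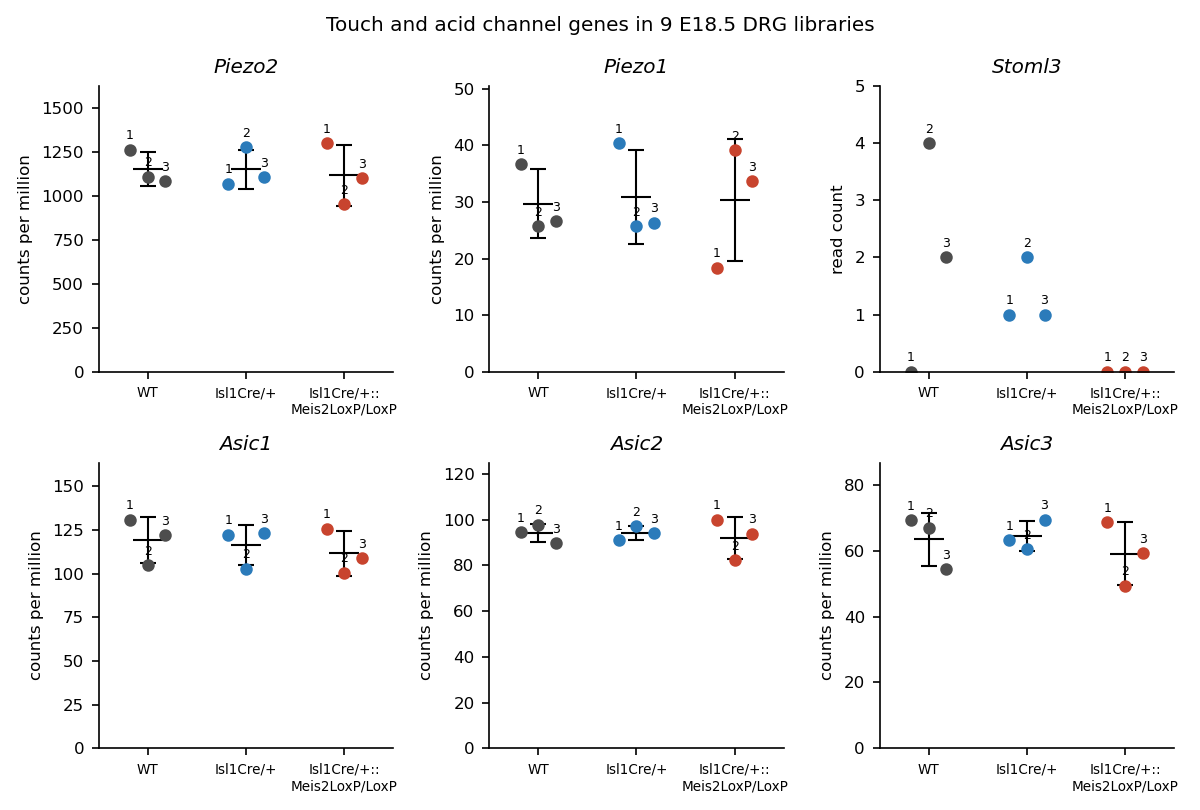
Level of each member in the 9 libraries, in cpm (y axis; read counts for Stoml3), by genotype (x axis), each axis starting at 0. Points are libraries with their numbers, horizontal marks and bars are the mean ± SD of 3 libraries (none drawn for Stoml3); in each panel but that of Stoml3 the mutant points overlap with those of both controls, and in those 5 panels the lowest point of all is a mutant library.

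Per kilobase of exon, which allows levels of different genes to be set side by side, the order was Piezo2, Asic3, Asic2, Asic1, Piezo1 and Stoml3. Over the 9 libraries Piezo2 ranged from 55.5 to 75.8 cpm per kilobase and lay above every ASIC value. The Asic3 (20.4 to 28.7), Asic2 (19.3 to 23.5) and Asic1 (17.5 to 22.8) ranges overlapped across libraries. Within a library, Asic3 was above Asic2 and above Asic1 in 9 of 9 libraries, by 1.13 to 6.60 and 1.17 to 9.41 cpm per kilobase, and Asic2 was above Asic1 in 7 of 9. The order of Asic2 and Asic1 thus did not hold in every library, and that of Asic3 was not tested, since it also rests on the exon lengths of the annotation. Piezo1 followed at 1.85 to 4.06 cpm per kilobase, above Stoml3 in every library and below each ASIC in every library. Among the tested genes in WT, 95.6% lay below Piezo2, 82.0% to 86.0% below the ASICs and 26.2% below Piezo1.

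None of the 5 members that could be tested differed between genotypes by the criterion of the study, a fold change of at least 1.2 with an unadjusted p under 0.05. Of 5 tested members, 0 met it in the mutant against WT, where 0.318% of all 13200 tested genes did, and 0 against Isl1Cre/+, where 1.67% did. These shares of all genes rested on single libraries: against WT, 42 genes met the criterion, but 132 without WT library 1, 120 without mutant library 1, 74 without mutant library 2 and 67 without WT library 3, and against Isl1Cre/+ 221 did, but 407 without mutant library 1. By an adjusted p under 0.05 alone, 0 members were called, against 0.00758% of all genes in each of these comparisons. Every adjusted p was 0.9997 or above, and none of these 5 had an unadjusted p under 0.05 in any comparison, with DESeq2 or limma voom included. In this bulk tissue fewer cells of a type and less RNA per cell cannot be told apart, and the study calls its replicates biological and its experiments independently repeated in general, without giving the embryos or litters behind each library, so the p-values measure only the spread between these libraries.

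The intervals show what sizes of difference in whole ganglia at E18.5 these libraries leave possible. The paper places Meis2 in a subset of the sensory neurons, and changes within that subset were not measured here. Its tests of touch used adult mice. For Piezo2 the mutant was at 0.971-fold of WT (95% interval 0.775 to 1.22) and at 0.971-fold of Isl1Cre/+ (0.788 to 1.2). Larger falls and rises than these bounds are outside the intervals. For Piezo1 the point values were close to 1, at 1.03-fold of WT and 0.986-fold of Isl1Cre/+, but the intervals ran from 0.656 to 1.60 and from 0.617 to 1.57. Differences of Piezo1 up to these bounds remain possible.

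The ASIC genes had point values a little under 1. Asic1 was at 0.937-fold of WT (0.770 to 1.14) and at 0.962-fold of Isl1Cre/+ (0.812 to 1.14). Asic2, with the narrowest intervals, was at 0.978-fold of both WT (0.837 to 1.14) and Isl1Cre/+ (0.860 to 1.11). Asic3 was at 0.931-fold of WT (0.734 to 1.181) and at 0.919-fold of Isl1Cre/+ (0.756 to 1.12). Each interval holds 1, so no direction can be given for any of these genes.

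Setting the 3 mutant libraries against all 6 control libraries, which the comparisons above already contain, narrowed the intervals. Of 5 tested members 0 met the criterion, against 0.992% of all genes (131, but 369 without mutant library 1 and 52 without mutant library 2), and 0 had an adjusted p under 0.05, against 0.00758%. The mutant was at 0.971-fold of the controls for Piezo2 (0.818 to 1.15), 0.949-fold for Asic1 (0.811 to 1.11), 0.978-fold for Asic2 (0.877 to 1.09), 0.925-fold for Asic3 (0.774 to 1.11) and 1.01-fold for Piezo1 (0.689 to 1.47). For Piezo2 and the ASICs a fall to under 0.77-fold or a rise past 1.16-fold was outside the interval.

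With the Cre allele alone, no member differed from WT beyond the spread of the libraries. In Isl1Cre/+ against WT, 0 of 5 tested members met the criterion, where 1.4% of all genes did (185, but 340 without WT library 1 and 102 without Isl1Cre/+ library 3), and 0 had an adjusted p under 0.05, as had 0% of all genes. Of those genes 236 had an unadjusted p under 0.05, and none of the members. Folds were 1.05 for Piezo1 (0.753 to 1.46), 1.01 for Piezo2 (0.864 to 1.177), 0.983 for Asic1 (0.825 to 1.17), 1.01 for Asic2 (0.899 to 1.13) and 1.02 for Asic3 (0.858 to 1.22).

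None of the 5 tested members had libraries of one genotype all below or all above those of the other. In the mutant against WT this was so for 1.74% of all genes below and 1.02% above, and against Isl1Cre/+ for 4.2% below and 3.45% above. In Isl1Cre/+ against WT the shares were 2.71% below and 2.95% above, and in the mutant against all controls 0.568% below and 0.28% above. The median log2 fold change of the 5 tested members was -0.04 in each comparison of the mutant, against -0.0094 over all genes with WT as the control and 0.00029 with Isl1Cre/+.

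**Figure D2:**
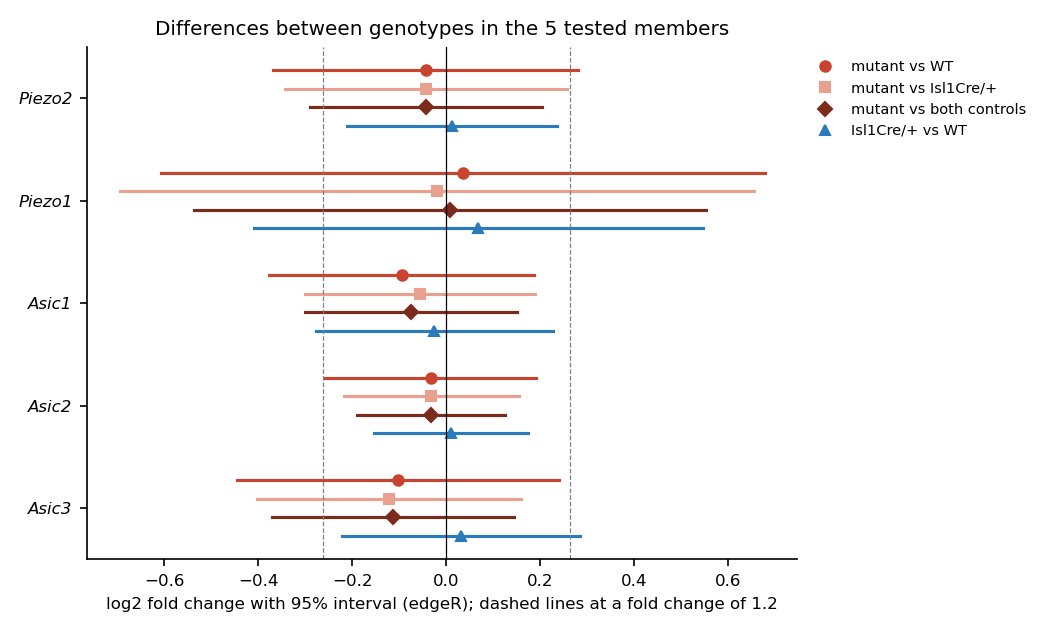
Log2 fold changes of the 5 tested members (x axis) for 4 comparisons of genotypes (colours and symbols), with 95% intervals from edgeR as lines and a fold change of 1.2 as dashed lines. All 20 intervals hold 0, and those of Piezo1 are the widest.

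The sign of most of these small values turned with a single library. Without mutant library 2, the mutant against WT gave log2 fold changes of 0.08 for Piezo2, 0.06 for Asic2 and 0.03 for Asic3, and -0.17 for Piezo1. Without mutant library 1, which stood at the other end of the range, the values were -0.17 for Piezo2, -0.10 for Asic2, -0.22 for Asic3 and 0.30 for Piezo1. Asic1 gave -0.00062 without library 2 and -0.19 without library 1. Without WT library 1 they were 0.22 for Piezo1, 0.03 for Piezo2, -0.02 for Asic1, -0.03 for Asic2 and -0.04 for Asic3. Without WT library 3 they were -0.04 for Piezo1, -0.09 for Piezo2, -0.08 for Asic1, -0.06 for Asic2 and -0.20 for Asic3. None of these 5 members met the criterion in any of these cases.

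Within a library, the balance of the members does not depend on its scaling. Of the summed Asic1, Asic2 and Asic3 level per kilobase, Asic1 made up 30.1% ± 3.25 in WT (SD, n = 3), 29.3% ± 1.88 in Isl1Cre/+ and 29.8% ± 0.820 in the mutant. Asic2 made up 32.0% ± 1.64, 32.1% ± 2.25 and 33.1% ± 1.06, and Asic3 37.9% ± 2.89, 38.6% ± 0.990 and 37.2% ± 1.40. The mutant differed from the 6 control libraries by 0.041, 0.995 and -1.04 percentage points in mean share (exact permutation tests, two-sided, p = 1 for Asic1, p = 0.381 for Asic2 and p = 0.452 for Asic3). The smallest p that 3 against 6 libraries can give is 0.0238, and 4 such tests were made. These differences were under the SD between the WT libraries, but the one of Asic3 was slightly over the SD of Isl1Cre/+. Without one library they ranged from -0.601 to 0.661 points for Asic1, from 0.618 to 1.61 for Asic2 and from -1.75 to -0.287 for Asic3, so that the sign of Asic1 turned with a single library.

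The ratio of Piezo2 to Piezo1 per kilobase was 22.8 ± 2.61 in WT, 22.8 ± 6.85 in Isl1Cre/+ and 24.7 ± 14.3 in the mutant (SD, n = 3 each; exact permutation test, two-sided, p = 0.714). The direction rested on single libraries: the mutant mean was 16.5 without mutant library 1 and 29.9 without mutant library 2, against 22.8 in the controls, and with all mutant libraries but without WT library 1 the control mean was 23.4. The libraries ranged from 14.1 in mutant library 2 to 40.9 in mutant library 1. Both ends of this range were therefore mutant libraries, and the SD of the ratio was larger in the mutant than in either control, a difference in spread that was not tested.

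**Figure D3:**
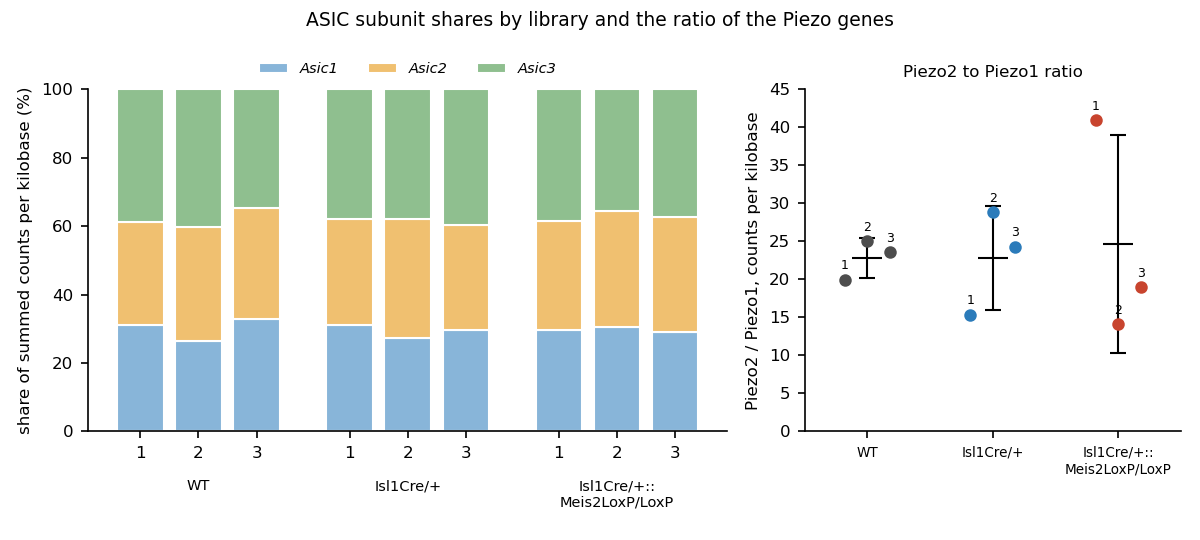
Left, share of Asic1, Asic2 and Asic3 in their summed counts per kilobase (y axis, percent) in each numbered library by genotype. Right, ratio of Piezo2 to Piezo1 per kilobase by genotype, points being libraries and bars the mean ± SD of 3; the ASIC shares stay within 26.5% to 40.2% in all libraries, while the Piezo ratio runs from 14.1 to 40.9.

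Markers of other cell types moved with Piezo1 in part. The 7 endothelial markers, with Cdh5 as the most abundant, summed to 292 to 318 cpm in WT, 328 to 438 cpm in Isl1Cre/+ and 247 to 386 cpm in the mutant. Isl1Cre/+ library 1 was the highest and mutant library 1 the lowest of the 9 libraries for this sum, as for Piezo1. The low end was not shared by all markers of the sum. Cdh5, Cldn5, Tek and Tie1 were lowest in mutant library 1, with Cdh5 at 93.5 cpm against 149.9 cpm in WT library 1. Pecam1, Kdr and Emcn were instead lowest in WT library 1, with Kdr at 36.6 cpm against 44.9 cpm in mutant library 1. The 6 fibroblast markers, led by Col1a1, summed to 2910 to 4201, 2988 to 4507 and 2552 to 4882 cpm, with mutant library 1 again the lowest and mutant library 2 the highest. WT library 1, the third highest for Piezo1, had the second lowest endothelial sum (292 cpm). No marker of either list was at 0 in all libraries. Ctu2, on the opposite strand, was at 15.3 ± 3.09 cpm in WT, 13.3 ± 1.21 in Isl1Cre/+ and 13.9 ± 1.40 in the mutant (SD, n = 3 each). The part of these cells and of Ctu2 in the Piezo1 counts was not tested.

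Neuronal markers moved with the other members in part. Summed pan-neuronal markers were at 7577 to 9819 cpm in WT, 8050 to 8404 cpm in Isl1Cre/+ and 7127 to 8862 cpm in the mutant. In the mutant, library 1 was the highest and library 2 the lowest for this sum and also for Piezo2, Asic1, Asic2 and Asic3. The mechanoreceptor and proprioceptor sum (2700 to 3424, 2718 to 2814 and 2502 to 3317 cpm) and the nociceptor sum (2402 to 2615, 2493 to 2684 and 2208 to 2777 cpm) had the same libraries at the ends within the mutant. Of the markers behind the first of these sums, only Nefh, the most abundant, had both of these ends. It was at 1653, 1011 and 1109 cpm in mutant libraries 1, 2 and 3. Within the mutant, Maf was highest in library 2 (107 cpm) and Ntrk3 lowest in library 3 (276 cpm). In the controls the match with the pan-neuronal sum held for Piezo2 in WT (library 1 highest, library 3 lowest for both) but not for all ASICs. Isl1Cre/+ library 2, with the highest pan-neuronal sum of its group, had its lowest Asic1 (103 cpm) and Asic3 (60.5 cpm). Asic2 in WT was highest in library 2 (97.9 cpm). The part of neuronal content in the spread of these channel genes was not tested. Scaling by the pan-neuronal markers in place of library size turned the mutant against WT to 0.08 for Piezo2 and 0.09 for Asic2 on the log2 scale, and no member met the criterion.

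**Figure D4:**
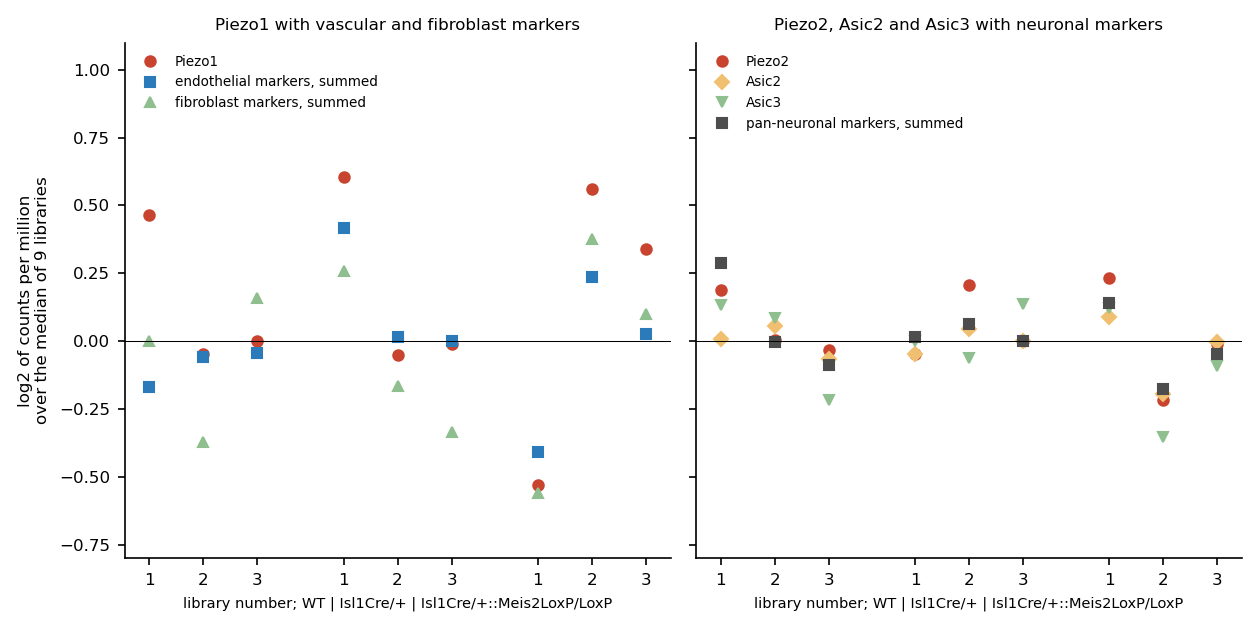
Log2 of cpm over the median of the 9 libraries (y axis) in each numbered library by genotype (x axis), for Piezo1 with summed endothelial and fibroblast markers (left) and for Piezo2, Asic2 and Asic3 with summed pan-neuronal markers (right). Mutant library 1 is the lowest for all 3 series on the left, and mutant library 2 the lowest for all 4 on the right.

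The genes whose profile over the 9 libraries was most like that of a member were named by the root mean square difference of centred log2 cpm. Each member was set against 13191 other tested genes, repeated symbols left out. For Piezo2 these were Cacna1b, a subunit of a neuronal calcium channel (0.031), Plxna4, a semaphorin receptor (0.032), and Ank3, an ankyrin of the axon initial segment (0.038). For Piezo1 they were Adamtsl5 (0.098), Rapgef3, an exchange factor activated by cyclic AMP (0.11), and Loxl3, a lysyl oxidase (0.11). The likeness was looser for Piezo1, whose own profile also spread more around its mean (0.34) than that of Piezo2 (0.14).

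Asic1 was most like Slc17a7, a vesicular glutamate transporter (0.054), Adra2c, an adrenergic receptor (0.063), and Disp3 (0.064). Asic2 was most like Chn1, a chimaerin (0.018), Tbc1d9 (0.027) and Dync1li1, a dynein chain (0.029), and Asic3 most like Jhy (0.059), Nek3 (0.073) and Coil, the coilin of Cajal bodies (0.074). Among the members themselves the closest were Asic2 and Piezo2 (0.083), then Asic2 and Asic3 (0.11) and Asic3 and Piezo2 (0.12), whereas Piezo1 was 0.38 to 0.44 from each of the others. Asic2 spread by only 0.079 around its own mean, so it was no closer to Piezo2 or Asic3 than to a flat profile. The points of these profiles share library depth and tissue makeup.

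Among other genes tied to mechanical sensing, none met the criterion either. A list of 22 such genes held stomatins, TMEM63 and TMEM150C channels or candidates, the potassium channels that respond to stretch, and proteins reported to bind or tune PIEZO channels. Of these, 19 were tested, and the others, Tmc1 and Tmc2 among them, were under the minimum. None of the 19 met the criterion in the mutant against WT (0.318% of all genes), against Isl1Cre/+ (1.67%) or against all controls (0.992%), nor in Isl1Cre/+ against WT (1.4%). In the mutant against WT, 7 of the values were above 0 and 12 below, from -0.16 (Mdfi, an inhibitor of myogenic factors) to 0.26 (Stom, stomatin) on the log2 scale, with a median of -0.03, where 53.79% of all genes were below 0. Both ends, as those against Isl1Cre/+ that follow, are named after their values were seen, and both rested on single libraries. Stom, with 410, 916 and 432 counts in the mutant libraries against 505, 533 and 548 in WT, was at -0.18 without mutant library 2, and Mdfi was at 0.29 without WT library 1. Against Isl1Cre/+ 9 values were above 0 and 10 below, from -0.20 (Tmem63c) to 0.19 (Kcnk4, a stretch-sensitive potassium channel; 0.28 without mutant library 2), with a median of -0.01.

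The members of this list with the highest level per kilobase were Anxa6, an annexin, at 255 ± 37.1, 256 ± 12.8 and 248 ± 12.9 cpm per kilobase in WT, Isl1Cre/+ and mutant (SD, n = 3 each), and Atp2a2, a calcium pump of the endoplasmic reticulum, at 60.3 ± 6.88, 62.2 ± 1.45 and 60.4 ± 3.29. Their mutant against WT log2 fold changes were -0.04 (95% interval -0.33 to 0.25) and 0.0020 (-0.26 to 0.26). Chosen after its values were seen, Tmem63c, of a family of stretch-activated channels, had all 3 mutant libraries below all 3 Isl1Cre/+ libraries (1553, 1235 and 1359 against 1778, 1799 and 1704 counts), as had 4.2% of all genes, with a log2 fold change of -0.20 (-0.41 to 0.0086; unadjusted p = 0.0579). Against WT, with 1647, 1573 and 1504 counts, it was at -0.08 (-0.34 to 0.19). Against Isl1Cre/+ it was at -0.10 (-0.26 to 0.05) without mutant library 2 and at -0.27 (-0.48 to -0.05) without mutant library 1, where it met the criterion, as 3.08% of all genes then did. Tmem150c, also chosen after its values were seen, had all Isl1Cre/+ libraries below WT, as had 2.71% of all genes (log2 fold change -0.19; edgeR, unadjusted p = 0.0346), a fold under the criterion.

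Of a second list of 17 acid-sensing genes and partners of the ASICs, 9 were tested. It held the remaining ASIC genes, epithelial sodium channel subunits, proton-sensing receptors, acid-sensitive potassium channels, an acid-gated chloride channel, and scaffold proteins that bind ASIC subunits. Asic4 (41 to 75 counts), Gpr65 (30 to 46 counts), Scnn1a, Scnn1b, Scnn1g, Gpr132 and Otop1 were under the minimum, and Asic5 had 0 counts in all 9 libraries. None of the 9 met the criterion in any of the 4 comparisons, read against the same shares of all genes as above. In the mutant against WT, 4 values were above 0 and 5 below, with the lowest at -0.25 (Pick1, a scaffold that binds Asic1 and Asic2; -0.07 without WT library 1 and -0.38 without mutant library 3) and a median of -0.04. Against Isl1Cre/+, 3 were above and 6 below, with the lowest at -0.23 (Kcnk9, an acid-sensitive potassium channel; 0.04 without Isl1Cre/+ library 3 and -0.46 without Isl1Cre/+ library 2) and a median of -0.05. Pick1 and Kcnk9 are named as ends of these ranges, chosen after their values were seen.

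The most abundant genes of this list per kilobase were 2 scaffolds. Nherf1 was at 19.2 ± 1.51, 19.2 ± 2.14 and 18.2 ± 1.42 cpm per kilobase in WT, Isl1Cre/+ and mutant, and Magi1 at 13.4 ± 0.630, 13.3 ± 0.796 and 12.9 ± 1.44 (SD, n = 3 each). In the mutant against WT their log2 fold changes were -0.08 (-0.31 to 0.16) and -0.06 (-0.30 to 0.18). Pacc1, an acid-gated chloride channel gene chosen after its values were seen, had all mutant libraries above all Isl1Cre/+ libraries in cpm, as had 3.45% of all genes, with a log2 fold change of 0.08 (-0.08 to 0.23; unadjusted p = 0.281).

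**Figure D5:**
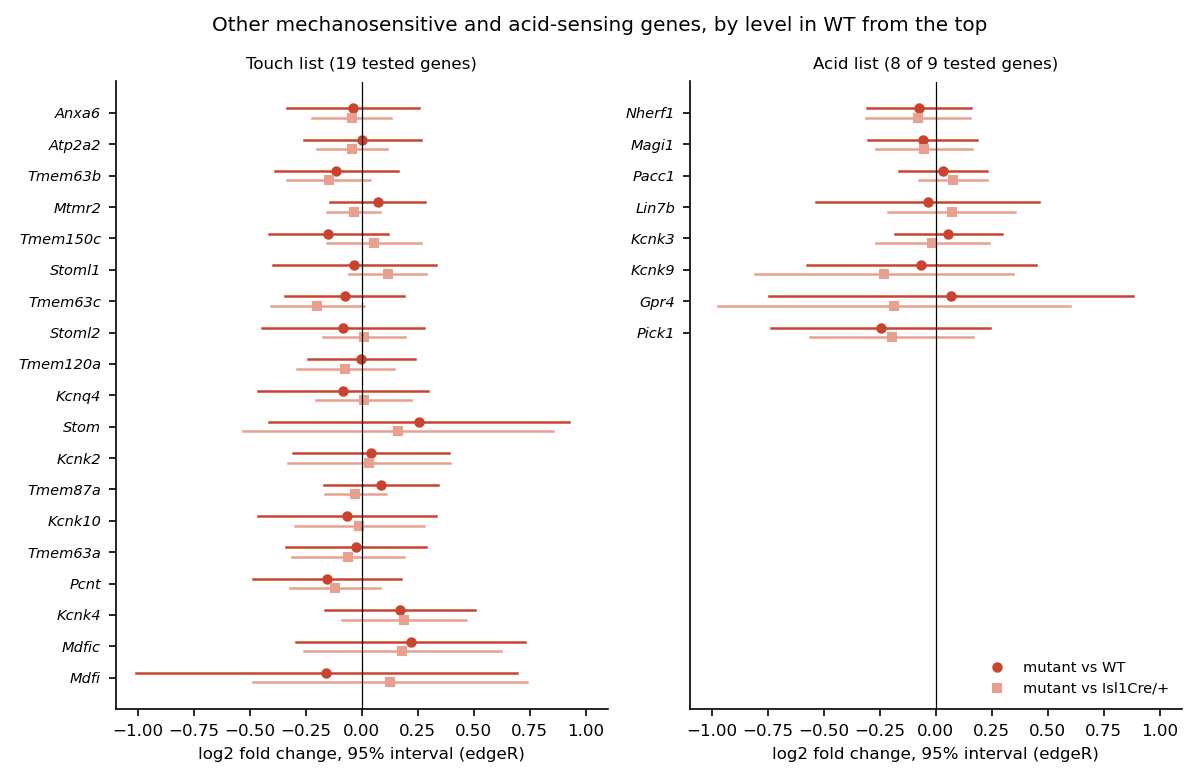
Log2 fold changes (x axis) of the tested genes of the touch list (left, 19 genes) and the acid list (right, 8 of 9 genes) in the mutant against WT and against Isl1Cre/+, ordered by level per kilobase in WT, with 95% intervals from edgeR as lines. All intervals drawn hold 0.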

How the data were processed

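Raw counts per gene were used as the authors deposited them, 3 libraries for each of 3 genotypes. Per the methods, poly(A) RNA libraries with molecular identifiers were sequenced single-end, aligned to mm10 with STAR 2.7.10, cleared of duplicates and counted with HTSeq 0.6. The annotation release and strand option are not given in the sources used here. The log2 fold changes, p-values and scores that the authors deposited beside the counts hold their own comparisons and were not used.

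The 13200 genes that reached 100 counts in 1 or more of the 9 libraries were tested with edgeR 4.0.16 in R 4.3.3 (TMM, two-sided quasi-likelihood test, Benjamini-Hochberg adjustment over all genes tested), each pair of genotypes alone, and all 9 libraries for the mutant against both controls. The 95% intervals came from the same fits. Levels are counts per 1000000 over TMM library sizes, per kilobase of merged exons of GENCODE M21, to which 54855 of 55247 identifiers matched with version and 55154 without. Within genotypes the libraries differed by more than counting error.

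The members, gene lists, marker lists and tests were chosen with earlier results of these data known. Named genes were the members, Meis2, list genes that met the criterion, the highest 2 of each list per kilobase in WT and the 3 genes most like each member; others are said to be chosen after their values were seen. Alternatives were DESeq2 size factors, library size only, pan-neuronal marker scaling, no filter, 100 counts in every library, DESeq2 1.42.0, limma voom 3.58.1, all genotypes in 1 fit, a replicate block and each library left out. After seeing the data, no filter with DESeq2 or limma voom and pan-neuronal scaling without Isl1 (1 of whose copies carries Cre) were added, as was leaving each library out of the subunit shares and the Piezo ratio. Some list genes are not reported here.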

Additional observations from a re-analysis of the deposited data

How the results depend on the processing

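Under 18 settings for each pair of genotypes and 20 for the mutant against both controls, 370 log2 fold changes of the 5 tested members were recomputed. They ranged from -0.25 to 0.30, 60 of them turned sign, 36 of these without one library, and 0 met the criterion, with a lowest unadjusted p over all settings of 0.0552 and a lowest adjusted p of 0.809. With no filter, 1 member, Stoml3, met the criterion in the mutant against WT (edgeR unadjusted p = 0.044, adjusted p = 0.997; 408 of 32546 genes met it) and 1 against both controls (unadjusted p = 0.0321; 2.74%), and 1 pathway gene, Asic4, against Isl1Cre/+ (3.18%). With no filter and limma voom, 1 member met it against Isl1Cre/+ (3.54%) and 1 against both controls (3.29%), again Stoml3, and 1 pathway gene, Asic4, against Isl1Cre/+. With no filter and DESeq2, Stoml3 had unadjusted p-values of 0.203, 0.329 and 0.107, so this call rests on 10 control counts and on the test. Without one library, 0 to 2 pathway genes met the criterion against Isl1Cre/+ (Kcnk4 and Gpr4 without mutant library 2, where 1.64% of all genes did, Tmem63c without mutant library 1, where 3.08% did, and Kcnk9 without Isl1Cre/+ library 2, where 1.73% did) and 0 to 1 against both controls (Kcnk4 without mutant library 2, where 0.394% did), out of 28 tested pathway genes.

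Pan-neuronal marker scaling turned the sign in the mutant against WT of Piezo2 (0.081), Asic1 (0.032), Asic2 (0.094) and Asic3 (0.022), against Isl1Cre/+ of Piezo1 (0.066) and Asic2 (0.016), against both controls of Piezo2 (0.040), Asic1 (0.010) and Asic2 (0.055), and in Isl1Cre/+ against WT of Asic1 (0.045). Leaving Isl1 out of these markers turned Piezo2 (0.031) and Asic2 (0.043) against WT, Piezo1 (0.077), Piezo2 (0.0083) and Asic2 (0.025) against Isl1Cre/+, and Piezo2 (0.020) and Asic2 (0.034) against both controls. Piezo1 turned with limma voom against WT (-0.016) and both controls (-0.040; -0.027 with no filter as well). In Isl1Cre/+ against WT, library size only turned Asic1 (0.0050), and all 3 genotypes in 1 fit turned Piezo2 (-1.3e-05) and Asic2 (-0.00055).

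Leaving out one library gave, in the mutant against WT, -0.17 to 0.30 for Piezo1, -0.17 to 0.082 for Piezo2, -0.19 to -0.00062 for Asic1, -0.10 to 0.064 for Asic2 and -0.22 to 0.033 for Asic3. Against Isl1Cre/+ the ranges were -0.24 to 0.24, -0.17 to 0.067, -0.15 to 0.021, -0.10 to 0.0498 and -0.25 to -0.0016, against both controls -0.21 to 0.27, -0.17 to 0.073, -0.17 to 0.0084, -0.10 to 0.055 and -0.23 to 0.014, and in Isl1Cre/+ against WT -0.17 to 0.22, -0.0704 to 0.065, -0.10 to 0.052, -0.016 to 0.048 and -0.064 to 0.082. For the mutant minus both controls within libraries, the ranges were -0.601 to 0.661, 0.618 to 1.61 and -1.75 to -0.287 percentage points for the shares of Asic1, Asic2 and Asic3, and -6.32 (without mutant library 1) to 7.11 (without mutant library 2) for the Piezo2 to Piezo1 ratio, with exact permutation p-values of 0.107 to 1. Same-numbered libraries deviated from their group means with correlations across genes of -0.569 to 0.385, and differently numbered ones with -0.516 to 0.509. No pairing by number was seen in these values, which cannot tell whether any libraries shared a litter. With a replicate block the members' values ranged from -0.13 to 0.05, Piezo1 against WT turned to -0.0051, and the block changed no call of a member or pathway gene, while it moved the count over all genes against both controls from 131 to 71. The cause of these turns was not tested. Within genotypes the coefficient of variation between libraries was above that of counting error for the 5 tested members, least so for Asic2 in Isl1Cre/+ (3.29% against 1.92%).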
